A study of Mus musculus with 40 samples.

Results

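The genes described here are 10 transcripts listed as mesothelial: the surface and membrane genes Upk3b, Msln, Upk1b, Lrrn4 and Gpm6a, the transcription factors Wt1 and Bnc1, and the keratins Krt8, Krt18 and Krt19. They were taken by name, and all 10 were found among the 55270 genes of the expression table. RNA was sequenced from fat of C57BL/6J mice in 40 libraries, 5 in each of 8 groups. The groups were high-fat diet (HFD) with drug, HFD, normal with drug and normal, each in tissue labelled subcutaneous and in tissue labelled visceral. According to the series description the drug was beta-carotene, a precursor of vitamin A. The labels used here give no allele, age, sex, dose or duration. They leave unstated whether libraries of a group came from separate animals, so p-values measure only the spread between libraries. Values are TPM, a share of a library's transcripts scaled by gene length, which allows levels of different genes to be compared.

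Mesothelium is the single layer of flat cells that covers the abdominal organs and the fat attached to them, including the fat around the epididymis; inguinal subcutaneous fat has no such cover. Mesothelial cells are unusual in combining an origin in mesoderm with keratin filaments, so the keratins 8, 18 and 19 are often used to mark them. The same keratins are made by most simple epithelia, such as the duct of the epididymis, the tube in which sperm mature. A keratin signal in epididymal fat can therefore come with mesothelial or with epithelial transcripts, and the libraries were compared to see which of these the keratins followed.

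Krt8 encodes a type II keratin and Krt18 the type I keratin with which it pairs in filaments, and the 2 genes are neighbours. In build GRCm38.p6 Krt8 lies at chr15:101996711-102004342 and Krt18 at chr15:102028216-102032026. RefSeq promoters (250 bases before to 50 after a gene's start) were found for 6 of the 10 members, Krt8, Krt18, Upk3b, Lrrn4, Bnc1 and Gpm6a. The promoters of the keratin pair and of 2 mesothelial genes are shown because levels within each pair ran together across libraries, while levels of the keratins and of the mesothelial genes did not. They are Krt8 at chr15:102004293-102004592 on the minus strand, Krt18 at chr15:102027966-102028265 on the plus strand, Upk3b at chr5:136038246-136038545 on the plus strand and Lrrn4 at chr2:132880813-132881112 on the minus strand. Capitals mark the letters TATAAA on either strand, where 2 matches overlap:
Krt8: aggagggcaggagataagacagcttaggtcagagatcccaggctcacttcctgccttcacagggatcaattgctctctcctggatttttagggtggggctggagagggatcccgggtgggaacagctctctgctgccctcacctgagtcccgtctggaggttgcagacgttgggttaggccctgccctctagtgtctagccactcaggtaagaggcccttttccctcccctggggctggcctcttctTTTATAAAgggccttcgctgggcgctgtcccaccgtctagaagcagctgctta
Krt18: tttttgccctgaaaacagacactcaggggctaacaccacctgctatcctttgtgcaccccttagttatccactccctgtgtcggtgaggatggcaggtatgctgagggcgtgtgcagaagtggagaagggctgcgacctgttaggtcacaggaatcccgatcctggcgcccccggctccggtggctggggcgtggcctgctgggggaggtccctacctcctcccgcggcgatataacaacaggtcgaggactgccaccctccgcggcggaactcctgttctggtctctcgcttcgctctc
Upk3b: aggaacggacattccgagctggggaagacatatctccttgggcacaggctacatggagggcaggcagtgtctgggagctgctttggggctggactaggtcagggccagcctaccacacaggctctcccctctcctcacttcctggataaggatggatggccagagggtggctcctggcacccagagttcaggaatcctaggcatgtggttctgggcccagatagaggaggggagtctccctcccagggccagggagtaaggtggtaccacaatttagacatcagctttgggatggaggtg
Lrrn4: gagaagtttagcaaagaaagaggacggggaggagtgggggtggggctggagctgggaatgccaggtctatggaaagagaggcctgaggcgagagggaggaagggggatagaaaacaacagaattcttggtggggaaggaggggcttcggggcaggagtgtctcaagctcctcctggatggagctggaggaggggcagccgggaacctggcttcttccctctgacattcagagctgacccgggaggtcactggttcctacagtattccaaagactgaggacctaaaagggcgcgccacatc
Several motifs were searched on both strands. The GC box was searched as GGGCGG. The TATA box was searched as TATAAA. The AP-1 motif was searched as TGANTCA. Krt8 held the letters TATAAA, which 13.6% of the 32851 promoters of this length held at any place. In Krt8 they lie across the annotated start, and whether they act as a TATA box was not tested. Krt18, Upk3b and Lrrn4 held none of these exact strings, and looser matches were not searched. The Bnc1 promoter held 6 matches to GGGCGG, a motif found in 35.7% of promoters. Of the 2 promoters of Gpm6a, 1 held the letters of the GC box and 1 those of the TATA box. The AP-1 letters stood in 7.81% of promoters and in none of those of the members. None of these strings of letters stood in both the Krt8 and the Krt18 window, and other motifs were not searched.

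Before the members are described, several libraries need naming. Depot markers ran against the depot labels: the 4 inguinal position genes Tbx15, Shox2, Hoxc10 and Hoxc9 summed to 1.62 to 16.9 TPM in the 20 libraries labelled subcutaneous and 39.6 to 88.2 TPM in the 20 labelled visceral. The library titles end in e (15) or ewat (5) for tissue labelled subcutaneous and in i (20) for tissue labelled visceral; the labels used here do not say what these endings stand for. Whether the tissue labels were exchanged was not tested, and the groups are called by their labels throughout. A list of 21 epididymis genes, among them Adam7, a membrane protein of epididymal cells, exceeded a sum of 500 TPM in 5 libraries labelled subcutaneous. These were numbers 26 and 27 of HFD with drug and numbers 5, 9 and 11 of normal with drug. Its sum reached 90336 TPM in normal with drug library 9, where 4 fat cell genes summed to 7028 TPM, their lowest sum in libraries labelled subcutaneous. Fat cell genes (Adipoq, Plin1, Fabp4 and Cidec) summed to 7028 to 39669 TPM in libraries labelled subcutaneous and 16903 to 43967 TPM in those labelled visceral. Libraries held about 4.58 to 8.59 M counted reads (M, 1e6), and no 2 libraries were identical.

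Of the 7 mesothelial genes, 5 were found almost entirely in libraries labelled subcutaneous, with Upk3b the most abundant by median. Upk3b, a uroplakin membrane protein, had 6.94, 68.6 and 219 TPM as its lowest, median and highest level in the 20 libraries labelled subcutaneous, against 0, 0.0686 and 0.646 TPM in the 20 labelled visceral. Msln, which encodes the surface protein mesothelin, had 6.75, 26.1 and 72.5 TPM in libraries labelled subcutaneous, against 0, 0.468 and 0.752 TPM in those labelled visceral. Neither gene overlapped between the labels. Upk1b, a uroplakin of the tetraspanin family, had 0.812, 6.55 and 27.2 TPM in libraries labelled subcutaneous, against 0, 0.0150 and 0.175 TPM in those labelled visceral. The transcription factor Wt1 had 0.803, 3.25 and 7.48 TPM in libraries labelled subcutaneous, and it was listed at 0 in 10 of the 20 labelled visceral. Bnc1, a zinc finger transcription factor, had 0.360, 2.08 and 6.12 TPM in libraries labelled subcutaneous, and it was listed at 0 in 12 of the 20 labelled visceral. These 5 genes thus stood near 0 in every library labelled visceral.

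Lrrn4 and Gpm6a, which encode membrane proteins of mesothelial cells and neurons, were less restricted. Lrrn4 had 5.08, 17.3 and 40.7 TPM as its lowest, median and highest level in libraries labelled subcutaneous, against 1.60, 4.18 and 6.92 TPM in those labelled visceral. Gpm6a had 1.35, 3.91 and 9.42 TPM in libraries labelled subcutaneous, against 0.478, 0.736 and 1.36 TPM in those labelled visceral. The ranges overlapped narrowly for both, through HFD with drug library 25 labelled subcutaneous, which was lowest for all 7 mesothelial members. In that library Upk3b was at 6.94 TPM, while the other 19 libraries labelled subcutaneous had 30.6 TPM or more.

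The keratins were abundant in libraries labelled subcutaneous, with medians between those of Upk3b and Msln, and they reached into tissue labelled visceral. Krt18 had 6.02, 54.8 and 655 TPM as its lowest, median and highest level there, against 0.1097, 1.57 and 51.67 TPM in libraries labelled visceral. Krt8 had 4.69, 32.2 and 189 TPM in libraries labelled subcutaneous, against 0, 0.547 and 14.4 TPM in those labelled visceral. Krt19, another type I keratin, had 6.28, 32.7 and 115 TPM in libraries labelled subcutaneous, against 0.452, 3.13 and 18.2 TPM in those labelled visceral. All 3 keratins overlapped between the labels, unlike Upk3b and Msln. Reads of near copies may be divided differently by the counting, which the sources used here do not describe; the pseudogene Krt8-ps reached 4.88 TPM and the Upk3b relative Upk3bl 2.71 TPM in libraries labelled subcutaneous. Wt1os, antisense to Wt1, had 0.0381 to 0.601 TPM there, and without strand its reads and those of Wt1 cannot be told apart where they overlap.

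**Figure D1:**
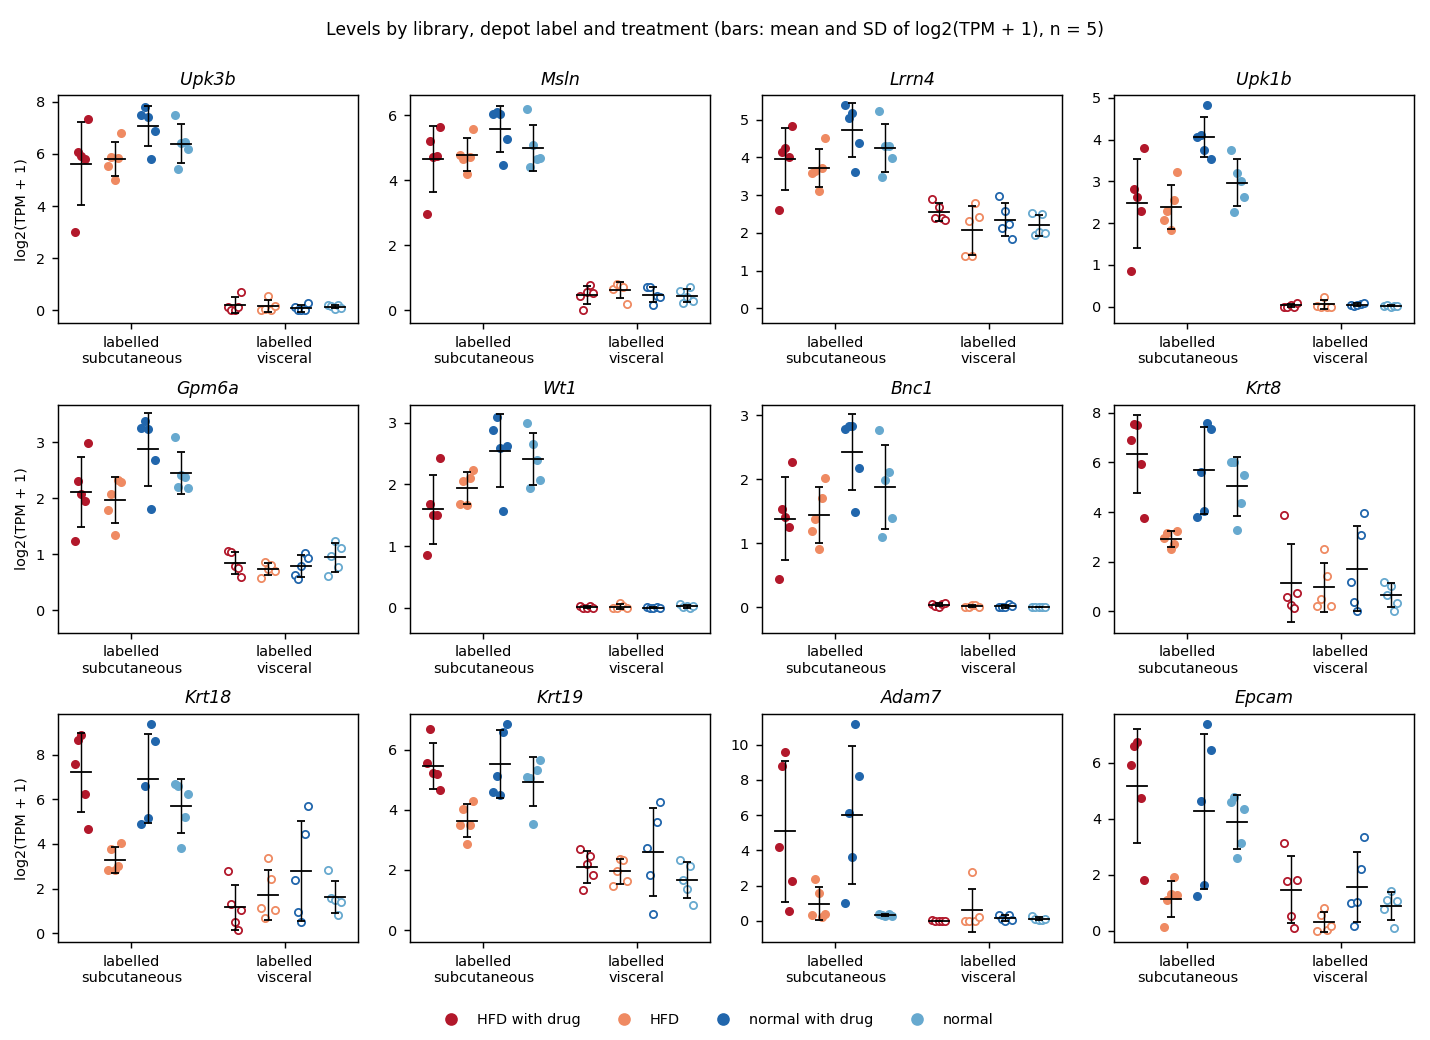
Levels of the 10 members, Adam7 and Epcam as log2(TPM + 1) by library, for tissue labelled subcutaneous (filled points) and labelled visceral (open points) and by treatment (colours); bars are mean and SD, n = 5. Upk3b, Msln, Upk1b, Wt1 and Bnc1 sit near 0 in all libraries labelled visceral, and the 3 keratins are low in the HFD group labelled subcutaneous, where Krt8 lies between 4.69 and 8.49 TPM.

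The depot labels were compared within each treatment with limma on log2(TPM + 1), fitted over all 40 libraries and adjusted over 19859 genes at a threshold of 0.05. A member that is near 0 in one label passed the filter only through the other, so these calls describe the label groups and support nothing further. All 10 members were called higher in tissue labelled subcutaneous under HFD with drug, where 9.18% of genes were called higher, under normal with drug, where 10.2% were called higher, and under normal, where 6.1% were called higher. Under HFD 7 members were called higher, against 1.32% of genes, and the keratins were not. There Krt8 averaged 6.68 ± 1.57 TPM in tissue labelled subcutaneous and 1.42 ± 1.93 TPM in tissue labelled visceral (SD, n = 5 each), a difference of 1.94 ± 0.80 log2 (SE, adjusted p = 0.292). Krt18 differed by 1.58 ± 0.89 log2 (adjusted p = 0.517) and Krt19 by 1.68 ± 0.52 log2 (adjusted p = 0.0926). Upk3b under HFD averaged 59.98 ± 29.61 TPM in tissue labelled subcutaneous and 0.125 ± 0.194 TPM in tissue labelled visceral. Whether the label difference of the keratins itself changed with treatment was not tested.

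Drug under HFD went with higher keratins and with no called change of the mesothelial genes in tissue labelled subcutaneous. Krt8 had 118, 185, 182, 61.0 and 12.6 TPM in HFD with drug libraries 25, 26, 27, 52 and 62, against 6.82, 7.86, 4.69, 5.55 and 8.49 TPM in HFD libraries 22, 23, 50, 82 and 83. Krt18 had 192, 400.3, 476, 73.8 and 24.8 TPM in the same HFD with drug libraries, against 6.02, 12.7, 6.04, 7.10 and 15.7 TPM in the HFD libraries. Krt19 had 46.4, 101, 35.9, 35.2 and 24.4 TPM with drug, against 10.3, 15.3, 6.28, 10.3 and 18.5 TPM without it. For each keratin all HFD with drug libraries lay above all HFD libraries, with library 62 the lowest of those with drug. The share of all genes that separate these groups is not given here, so this is not read as particular to the keratins. In this comparison 5955 of 17649 genes had an unadjusted limma p under 0.05.

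The 3 keratins were the members called in HFD with drug minus HFD, 3 of 10, all higher, where 19.2% of genes were called and 2.63% were called higher (limma, 20 libraries labelled subcutaneous, 17649 genes). Krt18 averaged 233 ± 198 TPM in HFD with drug and 9.50 ± 4.42 TPM in HFD, 3.92 ± 0.89 log2 higher (SE, adjusted p = 0.00804). Krt8 averaged 112 ± 75.4 TPM in HFD with drug and 6.68 ± 1.57 TPM in HFD, 3.42 ± 0.80 log2 higher (adjusted p = 0.00883). Krt19 averaged 48.7 ± 30.5 TPM in HFD with drug and 12.1 ± 4.79 TPM in HFD, 1.83 ± 0.50 log2 higher (adjusted p = 0.019). Without HFD library 50 the Krt19 call was lost (adjusted p = 0.0579). Over all genes 464 were called higher and 2924 lower, with a median change of -0.17 log2; after quantile normalization 672 were called higher and 927 lower with a median of -0.01 log2, and the keratins differed by 3.57 log2 for Krt8, 4.05 log2 for Krt18 and 2.005 log2 for Krt19.

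Upk3b had 6.94, 66.2, 59.6, 54.6 and 159.9 TPM in HFD with drug libraries 25, 26, 27, 52 and 62, against 45.2, 58.6, 30.6, 56.5 and 109 TPM in HFD libraries 22, 23, 50, 82 and 83. Msln had 6.75, 35.9, 25.4, 25.7 and 48.9 TPM in HFD with drug, against 26.5, 24.2, 17.2, 25.5 and 47.0 TPM in HFD. The groups overlapped for both genes. Upk3b differed by -0.19 ± 0.61 log2 (adjusted p = 0.864) and Msln by -0.13 ± 0.46 log2 (adjusted p = 0.869). Changes of the other 5 mesothelial members lay between -0.35 log2 for Wt1 and 0.25 log2 for Lrrn4, with adjusted p of 0.421 to 0.929 over the 7. The SE leaves room for changes of these genes that 5 libraries a group could not show. In bulk tissue, fewer cells of a type and less RNA per cell cannot be told apart.

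Markers of other epithelium moved with the keratins in this comparison. Of 9 simple epithelium genes, 6 rose with drug under HFD, with a median over the 9 of 2.76 log2 against -0.17 log2 over all genes. Epcam, an adhesion protein of epithelial cells, averaged 57.9 ± 44.3 TPM in HFD with drug and 1.37 ± 0.945 TPM in HFD (4.03 log2, adjusted p = 0.0174), with an overlap through library 62, which had 2.51 TPM. Cldn7, a tight junction claudin, averaged 73.8 ± 69.2 TPM in HFD with drug and 1.43 ± 0.727 TPM in HFD (4.05 log2, adjusted p = 0.027), and Elf3, a transcription factor of epithelia, 50.6 ± 40 TPM in HFD with drug and 1.01 ± 0.620 TPM in HFD (3.99 log2, adjusted p = 0.0212). The list summed to 25.8 to 1385 TPM in HFD with drug and 8.15 to 36.7 TPM in HFD. The 21 epididymis genes summed to 7.97 to 13062 TPM in HFD with drug and 7.60 to 149 TPM in HFD; of 14 tested none was called by limma, with a median of 1.85 log2, and 1 had an unadjusted p under 0.05. This was Adam7, which differed by 4.10 ± 1.69 log2 (unadjusted p = 0.0263, adjusted p = 0.0965).

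Mesothelium genes beyond the members gave another picture. Of 18 such genes 16 were tested, 1 was called higher and none lower in HFD with drug minus HFD, with a median of 0.08 log2. The gene called was Ildr2, a membrane protein of the immunoglobulin family, at 8.84 ± 3.76 TPM in HFD with drug and 3.98 ± 1.22 TPM in HFD (0.93 log2, adjusted p = 0.0271). Slpi, a secreted protease inhibitor, averaged 4.56 ± 2.40 TPM in HFD with drug and 3.95 ± 0.496 TPM in HFD (0.04 log2, adjusted p = 0.945). All 4 macrophage genes (Cd68, Adgre1, Itgax and Gpnmb) were called lower with drug under HFD, and they summed to 253 to 409.9 TPM in HFD with drug and 722 to 4637 TPM in HFD. Gpnmb, a lysosomal glycoprotein, had the largest change of the 4 (-3.65 log2, adjusted p = 0.0042). Col1a1, a collagen of fibroblasts, was also called lower, at 123 ± 56.9 TPM in HFD with drug and 334 ± 138 TPM in HFD (-1.47 log2, adjusted p = 0.00964), while Dpp4, a surface peptidase of progenitor cells, was called higher, at 8.57 ± 3.77 TPM in HFD with drug and 4.60 ± 0.495 TPM in HFD (0.69 log2, adjusted p = 0.0329). Of the other lists compared, 4 of 5 skin keratinocyte genes were tested with a median of 1.38 log2, 3 of 4 germ cell genes with -0.38, 4 of 6 B cell genes with -0.14, 1 of 5 skeletal muscle genes with -0.18, 4 of 4 fat cell genes with -0.17 and 2 of 4 inguinal position genes with -0.37, and none of these was called by limma or had an unadjusted p under 0.05. The part of macrophage, fibroblast and skin transcripts in the keratin difference was not tested.

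Further fits gave other keratin values. Without the 5 libraries rich in epididymis transcripts, HFD with drug was left with libraries 25, 52 and 62. Epcam in these was at 59.5, 25.9 and 2.51 TPM. Krt8 then remained 2.62 log2 higher in HFD with drug than in HFD (limma adjusted p = 0.0183). Krt18 remained 2.87 log2 higher (adjusted p = 0.0146) and Krt19 1.503 log2 higher (adjusted p = 0.0237). With Adam7 as a covariate Krt18 stayed called, at 2.16 log2 (adjusted p = 0.0398), and the calls of Krt8 at 1.99 log2 (adjusted p = 0.0534) and Krt19 at 1.12 log2 (adjusted p = 0.13) were lost. With Epcam as a covariate none of the 3 was called, at 0.63, 0.81 and 0.46 log2 for Krt8, Krt18 and Krt19 (adjusted p = 0.3, 0.262 and 0.574). Epcam was chosen after the values were seen, and it differed itself by 4.03 log2 in this comparison. It had r of 0.847 to 0.967 with the keratins, so using it as a covariate takes out most of their difference by construction. That fit cannot show what the keratin difference comes from.

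Without drug, keratin levels were lower in HFD than in normal, and no difference was called. Krt8 had 6.82, 7.86, 4.69, 5.55 and 8.49 TPM in the HFD libraries, against 64.0, 64.0, 8.71, 19.8 and 44.5 TPM in normal libraries 91, 92, 96, 98 and 99, and the groups did not overlap. Krt18 averaged 9.50 ± 4.42 TPM in HFD and 64.1 ± 38.4 TPM in normal, and Krt19 12.1 ± 4.79 TPM in HFD and 33.0 ± 14.3 TPM in normal. In HFD minus normal limma called 0 of 10 members, where 5.45% of genes were called; 3 members had an unadjusted p under 0.05, the keratins. Krt8 differed by -2.13 ± 0.80 log2 (adjusted p = 0.125), Krt18 by -2.41 ± 0.89 log2 (adjusted p = 0.122) and Krt19 by -1.30 ± 0.50 log2 (adjusted p = 0.136). The 7 mesothelial members lay between -0.59 log2 for Upk3b and -0.22 log2 for Msln.

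These keratin differences passed the threshold in some other fits and not in others. None was called with no filter, pseudocounts of 0.1 or 5, a filter of 10 TPM or quantile normalization (limma adjusted p = 0.0889 to 0.256). The share of all genes called in the fits of this paragraph is not given here. Without the 5 libraries rich in epididymis transcripts, none of which is in either group, the changes were the same and the adjusted p fell to 0.0365 for Krt8, 0.0223 for Krt18 and 0.039 for Krt19. With Epcam as a covariate the differences were -0.22, -0.29 and -0.37 log2 for Krt8, Krt18 and Krt19, with adjusted p of 0.617 to 0.712. Epcam itself averaged 1.37 ± 0.945 TPM in HFD and 16.3 ± 9.38 TPM in normal, with no overlap (-2.75 log2, adjusted p = 0.147). It was chosen after the values were seen and ran with the keratins. The fit with Epcam therefore cannot show what the keratin differences come from. HFD minus normal and HFD with drug minus HFD share the HFD libraries, so their opposite signs are not separate observations. Of the wider mesothelium list, Podxl, a sialomucin also made by vessels, was the 1 gene called, lower, at 25.7 ± 10.9 TPM in HFD and 67.5 ± 7.16 TPM in normal (-1.45 log2, adjusted p = 0.00779). Limma called 0 of 9 simple epithelium genes in HFD minus normal, 4 of them with an unadjusted p under 0.05 and with a median of -1.46 log2, and 0 of 14 epididymis genes, 0 with an unadjusted p under 0.05 and with a median of 0.78 log2. Of the 4 macrophage genes 3 were called higher in HFD.

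Drug on the normal diet and the drug-by-diet interaction gave no calls in tissue labelled subcutaneous. In normal with drug minus normal limma called 0 of 10 members and 0% of genes; 1 member and 1105 of 17649 genes had an unadjusted p under 0.05. That member was Upk1b, at 15.6, 16.3, 12.5, 27.2 and 10.7 TPM in normal with drug libraries 2, 5, 8, 9 and 11, against 12.4, 3.78, 8.13, 7.05 and 5.21 TPM in normal libraries 91, 92, 96, 98 and 99. The groups overlapped through libraries 11 and 91 (1.09 ± 0.42 log2, adjusted p = 0.772). Krt18 averaged 242 ± 275 TPM in normal with drug and 64.1 ± 38.4 TPM in normal, with normal with drug libraries 9 at 655 TPM and 11 at 394 TPM above all others (1.22 ± 0.89 log2, adjusted p = 0.815). The sign of the keratin differences rested on the libraries rich in epididymis transcripts: with normal with drug libraries 2 and 8 left in that group, they were -1.10 log2 for Krt8, -0.68 log2 for Krt18 and -0.41 log2 for Krt19 (adjusted p = 0.679, 0.827 and 0.833). The drug-by-diet interaction was called for 0 of 10 members and 0% of genes, with 2 members and 2728 genes at an unadjusted p under 0.05; it was 2.78 ± 1.12 log2 for Krt8 (adjusted p = 0.265) and 2.69 ± 1.26 log2 for Krt18 (adjusted p = 0.318). The keratin response to drug was therefore not shown to differ between diets. Adam7 in normal with drug did not overlap with normal, at 1.04 TPM or more against 0.289 TPM or less, yet was not called either (5.70 log2, adjusted p = 0.772).

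In HFD with drug minus normal with drug the mesothelial genes had larger differences than the keratins. One of them was called, a count near the share of all genes and not read as a result about the members. Upk1b was the 1 of 10 members called, lower, where 7.42% of genes were called and 5.56% were called lower; it averaged 5.77 ± 4.46 TPM in HFD with drug and 16.5 ± 6.43 TPM in normal with drug (-1.58 ± 0.42 log2, adjusted p = 0.0345). The call was lost when 1 of 4 libraries was left out, number 25 or 52 of HFD with drug or number 2 or 8 of normal with drug (adjusted p = 0.0644 to 0.0883). It was also lost with no filter, quantile normalization, the compared groups alone or without the epididymis-rich libraries (limma adjusted p = 0.067 to 0.15). Without normal with drug library 9, which had the highest Upk1b and the lowest Upk3b of its group, 4 members were called, Upk1b, Wt1, Gpm6a and Bnc1. The share of all genes called in that fit is not given here. Wt1 differed by -0.95 log2 (adjusted p = 0.0541), Bnc1 by -1.04 log2 (adjusted p = 0.0792) and Upk3b by -1.45 log2 (adjusted p = 0.14), and the keratins by -0.07 to 0.65 log2. Over all genes 328 were called higher and 982 lower; after quantile normalization 229 were called higher and 157 lower, and no member was called.

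Across the 20 libraries labelled subcutaneous the members fell into 2 sets that varied apart. The 7 mesothelial members had Pearson r of 0.683 to 0.962 with each other over 21 pairs, and 0.845 to 0.962 when Upk1b was left out. The 3 keratins had r of 0.899 to 0.986 with each other. Over the 21 pairs of a keratin with a mesothelial member r lay between -0.272 and 0.294, with a median of -0.043. These values describe log2(TPM + 1) in libraries that share scaling and treatment groups.

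**Figure D2:**
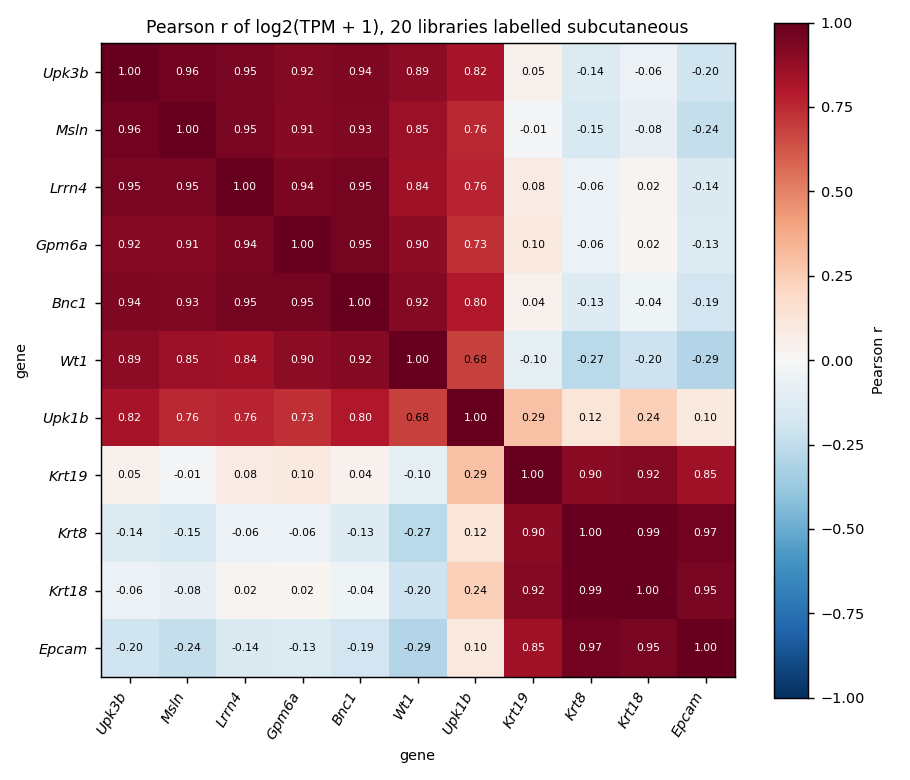
Pearson r of log2(TPM + 1) between members and Epcam over the 20 libraries labelled subcutaneous, from blue (-1) to red (1). The 7 mesothelial genes form one block, with r of 0.683 to 0.962, and the keratins another with Epcam, and values between the keratins and the mesothelial genes stay between -0.272 and 0.294.

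No relation of the keratins with Upk3b or Msln passed the test. Krt8 had r = -0.139 with Upk3b (rho = 0.048, permutation p = 0.572 for r) and r = -0.151 with Msln (rho = -0.030, permutation p = 0.531). Krt18 had r = -0.055 with Upk3b (rho = 0.083, permutation p = 0.822) and r = -0.081 with Msln (rho = -0.041, permutation p = 0.737), and Krt19 had r = 0.046 (rho = 0.102, permutation p = 0.849) and r = -0.014 (rho = -0.072, permutation p = 0.952). These 6 relations and the 3 with Adam7 were adjusted together, and the 6 had an adjusted p of 0.952 each for r and of 0.901 each for rho. Without the 2 libraries farthest from the median of Upk3b or Msln they lay between -0.066 and 0.199. As deviations from the group means, r was lower: -0.392, -0.332 and -0.190 with Upk3b and -0.370, -0.336 and -0.242 with Msln for Krt8, Krt18 and Krt19. Over the 21 pairs of a keratin with a mesothelial gene these within-group correlations ranged from -0.515, for Wt1 with Krt8, to 0.005, with a median of -0.338, and are given as a description with no test.

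With Adam7 the relation was strong over all libraries and weak without those rich in epididymis RNA. Krt18 had r = 0.784 with Adam7 (rho = 0.618, permutation p = 4e-05 for r and 0.0043 for rho, adjusted 0.00036 and 0.027). Krt8 had r = 0.721 (rho = 0.600, permutation p = 0.0003 and 0.00599, adjusted 0.00135 and 0.027) and Krt19 r = 0.659 (rho = 0.535, permutation p = 0.00168 and 0.0163, adjusted 0.00504 and 0.0488). Without the 2 libraries farthest from the median of Adam7 r was 0.612, 0.671 and 0.638 for Krt8, Krt18 and Krt19. As deviations from the group means r with Adam7 was 0.742, 0.815 and 0.585, given with no test. Over the 15 libraries that were not rich in epididymis transcripts r was 0.157 for Krt8, 0.234 for Krt18 and 0.121 for Krt19. Adam7 reached 17.5 TPM at most in these 15 libraries, which were kept by a sum that includes Adam7. A narrow range lowers r, so these values cannot show that a relation is absent.

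Libraries with almost no Adam7 showed where the 2 readouts separated. Adam7 was under 1 TPM in 9 libraries labelled subcutaneous, and Krt18 ranged between 6.02 and 101 TPM among them. Normal library 91 had Krt18 at 101 TPM, Epcam at 23.1 TPM and Adam7 at 0.283 TPM, with an epididymis list sum of 3.47 TPM. Normal library 92 had Krt18 at 96.2 TPM, Epcam at 26.1 TPM and Adam7 at 0.276 TPM, with a list sum of 2.51 TPM, the lowest of the 20. Between these 2 libraries Upk3b was 180.2 TPM in library 91 and 41.5 TPM in library 92, while Krt8 was 64.0 TPM in each. HFD library 22 had Krt18 at 6.02 TPM, Epcam at 0.0899 TPM and Adam7 at 0.262 TPM, with Upk3b at 45.2 TPM. So libraries alike in Adam7 differed widely in keratins. The 4 of these 9 with Krt18 at 73.8 TPM or more had Epcam at 19.3 to 26.1 TPM, and the other 5 had Epcam at 0.0899 to 7.70 TPM. Normal library 99, with Krt18 at 74.0 TPM and Adam7 at 0.222 TPM, had an epididymis list sum of 370 TPM, of which Crisp1, a secreted epididymal protein, made up 346 TPM, so Adam7 alone does not stand for every epididymis transcript.

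Epcam and the keratins ran together with and without those libraries. Their relation was added after the values were seen. Krt8 had r = 0.967 with Epcam (rho = 0.911, permutation p = 1e-05, the smallest that 100000 resamples give), Krt18 r = 0.953 (rho = 0.916, permutation p = 1e-05) and Krt19 r = 0.847 (rho = 0.811, permutation p = 1e-05 for r and 6e-05 for rho). Their adjusted p equalled the raw p, and without the 2 libraries farthest from the median of Epcam r was 0.967, 0.937 and 0.802 for Krt8, Krt18 and Krt19. Over the 15 libraries not rich in epididymis transcripts r was 0.932 for Krt8, 0.891 for Krt18 and 0.757 for Krt19. As deviations from the group means r with Epcam was 0.943, 0.937 and 0.735, given with no test. HFD with drug library 25 set the genes apart, with Krt18 at 192 TPM and Epcam at 59.5 TPM beside Upk3b at 6.94 TPM, the lowest of the 20 libraries, and Adam7 at 17.5 TPM.

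**Figure D3:**
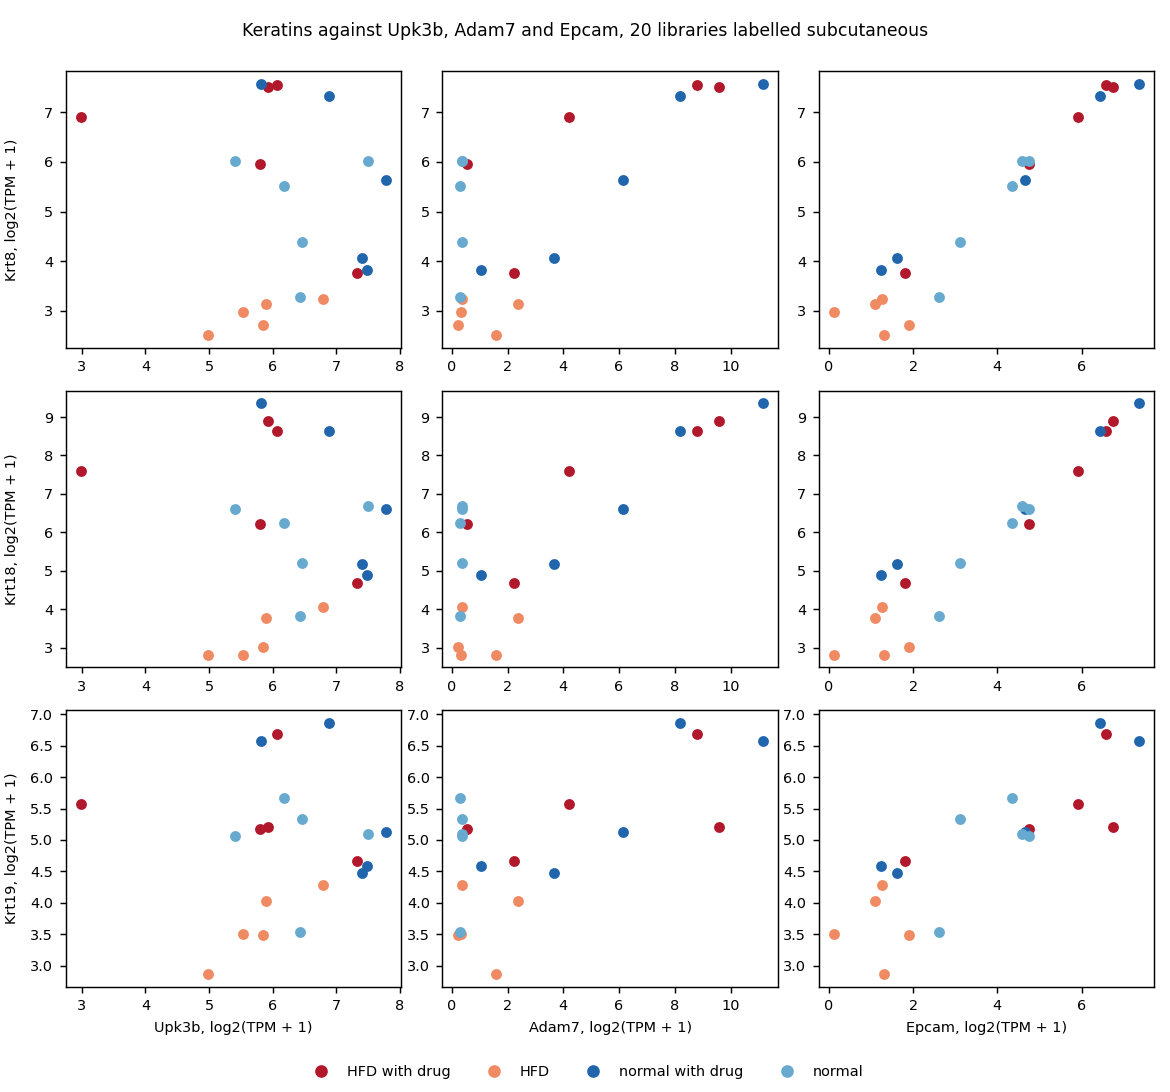
Krt8, Krt18 and Krt19 (rows) against Upk3b, Adam7 and Epcam (columns), each as log2(TPM + 1), in the 20 libraries labelled subcutaneous coloured by treatment. Krt18 has r = -0.055 with Upk3b, r = 0.784 with Adam7, where keratin levels spread widely at low Adam7, and r = 0.953 with Epcam.

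Upk3b and Adam7 were then fitted together, with the group means, so that each coefficient is the log2 change of a gene per log2 unit of the covariate within groups. Coefficients on Upk3b were called for all 6 other mesothelial members, where 0.238% of genes were called: 0.70 ± 0.06 for Msln (SE, limma adjusted p = 1.35e-05), 0.61 ± 0.05 for Lrrn4, 0.58 ± 0.10 for Upk1b, 0.51 ± 0.06 for Bnc1, 0.45 ± 0.06 for Gpm6a and 0.40 ± 0.06 for Wt1, the last 5 with adjusted p of 1.35e-05 to 0.0346. For the keratins they were -0.30 ± 0.21 for Krt8 (adjusted p = 0.526), -0.22 ± 0.21 for Krt18 (adjusted p = 0.661) and -0.05 ± 0.17 for Krt19 (adjusted p = 0.936). Coefficients on Adam7 were called for Krt18 at 0.41 ± 0.08 (adjusted p = 0.00142) and Krt8 at 0.32 ± 0.08 (adjusted p = 0.00764), not for Krt19 at 0.17 ± 0.06 (adjusted p = 0.0675) and for no mesothelial member; 18.9% of genes were called, 12.6% with a positive sign. The difference between the coefficients on Upk3b and on Adam7 was not tested.

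**Figure D4:**
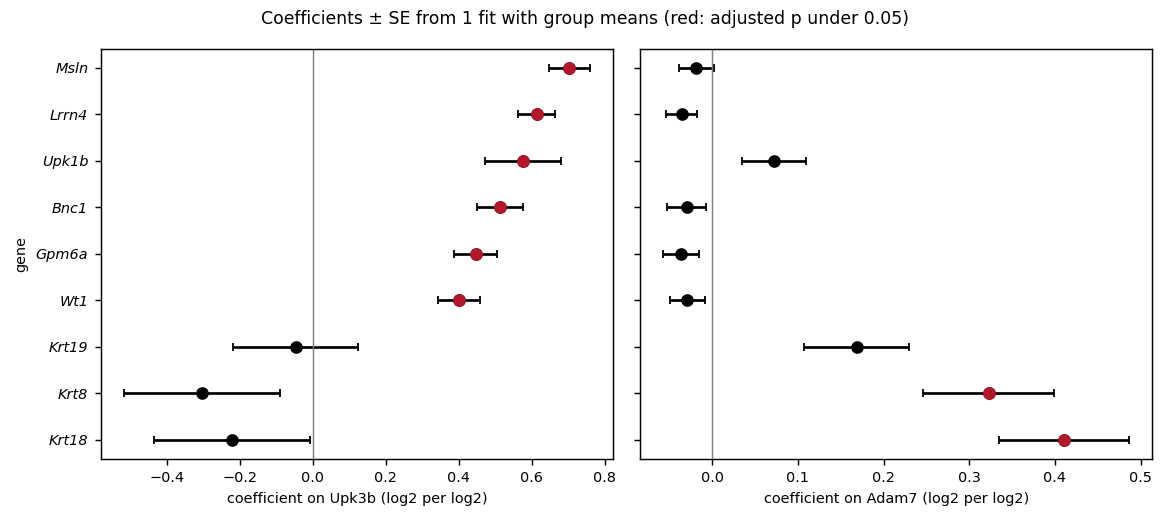
Coefficients of the members on Upk3b (left) and on Adam7 (right), in log2 per log2 unit with SE, from 1 limma fit with group means over the 20 libraries labelled subcutaneous; red points had an adjusted p under 0.05. The 6 mesothelial genes lie at 0.40 to 0.70 on Upk3b and near 0 on Adam7, while Krt8 and Krt18 are called on Adam7 at 0.32 and 0.41 and not on Upk3b.

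The Adam7 coefficients were not called without the same 5 libraries or beside Epcam. Without the libraries rich in epididymis transcripts they were -0.03 for Krt8 (adjusted p = 0.976), 0.12 for Krt18 (adjusted p = 0.921) and 0.02 for Krt19 (adjusted p = 0.977). Adam7 spans a narrow range in the libraries left, so that fit cannot show that a relation is absent. With Epcam added as another covariate, the Epcam coefficient was 0.72 ± 0.11 for Krt8 (adjusted p = 0.00811), 0.68 ± 0.13 for Krt18 (adjusted p = 0.0186) and 0.39 ± 0.14 for Krt19 (adjusted p = 0.396). The Adam7 coefficients in that fit were -0.01, 0.09 and -0.01 for Krt8, Krt18 and Krt19, none of them called. Adam7 and Epcam had r = 0.794 with each other as deviations from the group means, so their coefficients are hard to separate. The genes of the wider mesothelium list were called on either covariate in part. Of 16 tested, Nkain4 (0.40), Slpi (0.42), Crb2 (0.34) and Pkhd1l1 (0.47) were called on Upk3b with adjusted p of 0.00251 to 0.0372. On Adam7, Ezr (0.24, adjusted p = 0.00072), Krt7 (0.20 ± 0.03, adjusted p = 0.000287) and Ildr2 (0.10, adjusted p = 0.0317) were called with positive coefficients and Cldn15 (-0.11, adjusted p = 0.00389) with a negative one. Krt7, another simple epithelial keratin, had a coefficient on Upk3b of 0.39 ± 0.08 (adjusted p = 0.08), within the range of the 4 called genes, and no difference between coefficients was tested.

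The genes most like each member in these 20 libraries were listed by Pearson r among 9015 tested genes with a mean of at least 5 TPM. For Upk3b they were Msln (0.962), Lrrn4 (0.947), Slpi (0.917), the Wnt ligand Wnt2b (0.915), the prostacyclin synthase Ptgis (0.884) and Fiz1 (0.857). For Msln they were Upk3b, Lrrn4, Slpi (0.899), Wnt2b (0.892), Ptgis (0.869) and the adhesion receptor Adgrd1 (0.856). For Krt18 they were Krt8 (0.986), the epithelial serine protease Prss8 (0.985), the transporter Slc44a4 (0.975), the transcription factor Pou3f3 (0.972), the surface protein Cd24a (0.970) and the epithelial transcription factor Ehf (0.968). For Krt19 they were Cd24a (0.931), Krt18 (0.916), Nudt11 (0.908), Krt8 (0.899), Pou3f3 (0.896) and Prss8 (0.896). In the order for Krt18, Epcam stood at place 18, Krt19 at 50, Adam7 at 236, Upk3b at 3782 and Msln at 3971. Prss8 was at 26.96, 80.2, 77.8, 8.44 and 1.54 TPM in HFD with drug libraries 25, 26, 27, 52 and 62, against 0.103 to 1.03 TPM in the HFD libraries, the order that Krt18 had with drug except between libraries 26 and 27.

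Plain ratios of TPM within a library do not depend on the scaling between libraries. The tested ratios, with 1 TPM added, do depend on it, most where levels are low. Krt18 per Upk3b ranged between 0.126 and 27.7 (TPM over TPM) in libraries labelled subcutaneous, and Krt8 per Upk3b between 0.0738 and 17.1, whereas Msln per Upk3b kept between 0.277 and 0.972 and Krt18 per Krt8 between 0.882 and 3.46. Upk1b per Upk3b lay between 0.0663 and 0.492, with a median of 0.0823. The log2 ratio of Krt18 to Upk3b, with 1 TPM added to each, was higher in HFD with drug than in HFD by 4.10 (exact permutation p = 0.0238, adjusted 0.1 over 9 tests), that of Krt8 by 3.60 (exact p = 0.0476, adjusted 0.1) and that of Krt19 by 2.01 (exact p = 0.0476, adjusted 0.1). In HFD minus normal the differences were -1.82 for Krt18 (exact p = 0.0238, adjusted 0.1), -1.54 for Krt8 (exact p = 0.0556, adjusted 0.1) and -0.72 for Krt19 (exact p = 0.206, adjusted 0.31). In normal with drug minus normal they were 0.54 for Krt18 (exact p = 0.683), -0.04 for Krt8 (exact p = 0.96) and -0.09 for Krt19 (exact p = 0.913). No ratio passed the adjusted threshold; the tests were two-sided, and the smallest p that 5 against 5 libraries allow is 0.0079. With drug under HFD the log2 Krt18 ratio spread between -2.64 and 4.61, against -2.83 and -2.12 in HFD, so the groups overlapped through 1 library with drug, number 62, which had the highest Upk3b and lowest keratins of its group.

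In tissue labelled visceral some libraries held keratin transcripts with Upk3b and Msln near 0. Of the 10 members only Lrrn4, Gpm6a and the 3 keratins passed the filter of 1 TPM in 5 libraries. Krt18 had 4.25, 0.949, 0.419, 20.9 and 51.7 TPM in normal with drug libraries 2, 5, 6, 8 and 9, against 6.06, 2.004, 1.80, 0.774 and 1.67 TPM in normal libraries 92, 94, 96, 98 and 99. Libraries 8 and 9 stood high for Krt8 too, at 7.50 and 14.4 TPM, and for Krt19, at 11.2 and 18.2 TPM. In these 2 libraries Upk3b was at 0 and 0.233 TPM, Adam7 at 0.276 and 0.0410 TPM, Epcam at 3.63 and 9.21 TPM, and the claudin Cldn4 at 11.8 and 33.5 TPM. HFD with drug library 25 labelled visceral had Krt8 at 13.96 TPM but Krt18 at 5.80 TPM.

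No member was called by limma in tissue labelled visceral. None of the 5 tested members had an unadjusted p under 0.05 in HFD with drug minus HFD (2.16% of genes called), HFD minus normal (5.29%), normal with drug minus normal (0%, with 590 of 17094 genes at an unadjusted p under 0.05) or HFD with drug minus normal with drug (0.392%). Lrrn4 averaged 4.90 ± 1.01 TPM in HFD with drug and 3.51 ± 1.88 TPM in HFD (0.48 ± 0.27 log2, adjusted p = 0.374). Krt18 averaged 1.77 ± 2.32 TPM in HFD with drug and 15.6 ± 21.8 TPM in normal with drug (-1.65 ± 0.84 log2, adjusted p = 0.517). In relations added after the values were seen, Krt18 had r = 0.878 with Cldn4 (rho = 0.768, permutation p = 2e-05 and 0.00011, adjusted 0.00018 and 0.00072 over 9 relations), 0.660 with Epcam (rho = 0.519, permutation p = 0.00282 and 0.0202, adjusted 0.00508 and 0.0303) and 0.332 with Adam7 (rho = 0.600, permutation p = 0.102 and 0.00638, adjusted 0.132 and 0.0153). Without the 2 libraries farthest from the median r of Krt18 was 0.638 with Cldn4, 0.430 with Epcam and 0.288 with Adam7. The 21 epididymis genes, Adam7 among them, had a median sum of 1.98 TPM in these libraries (0.855 to 287.5 TPM). The rank relation of Krt18 with Adam7 therefore orders values that mostly lie near 0. Krt8 had r = 0.799 with Cldn4 (rho = 0.778, permutation p = 0.00023 and 0.00016, adjusted 0.000585 and 0.00072), 0.784 with Epcam (rho = 0.599, permutation p = 0.00026 and 0.00682, adjusted 0.000585 and 0.0153) and 0.303 with Adam7 (rho = 0.415, permutation p = 0.156 and 0.0707, adjusted 0.175 and 0.0909). Without the 2 farthest libraries these were 0.591, 0.481 and 0.042. Krt19 had r = 0.783 with Cldn4 (rho = 0.529, permutation p = 0.00011 and 0.0183, adjusted 0.000495 and 0.0303), and its relations with Epcam (r = 0.463, rho = 0.131, permutation p = 0.0401 and 0.582, adjusted 0.0601 and 0.582) and with Adam7 (r = 0.145, rho = 0.272, permutation p = 0.433 and 0.244, adjusted 0.433 and 0.275) did not pass. Without the 2 farthest libraries r of Krt19 was 0.431 with Cldn4, 0.064 with Epcam and 0.163 with Adam7.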

How the data were processed

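RNA of adipose tissue had been extracted with an RNeasy Mini kit and made into NEBNext Ultra libraries, per the labels' protocols. The authors deposited TPM values per gene, in 1 table of 40 libraries. The unit was read from the values, which sum to 998276 on average over the libraries. Per the submitters' processing notes, build GRCm39 and the tools STAR 2.7.8, featureCounts 2.0.3, FastQC 0.11.9 and DESeq2 1.32.0 were used; annotation, filters and the use of strand are not given in the sources used here. TPM holds no depth; approximate read numbers came from the size of 1 read, taken from low values times exon length (49067 genes).

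Values were analysed as log2(TPM + 1), which understates changes of low genes. A gene was tested at 1 TPM or more in at least 5 libraries of a fit, with limma 3.58.1 in R 4.3.3 (trended, robust empirical Bayes). The Benjamini-Hochberg adjustment covered every gene of the fit, with a threshold of 0.05. The fits held the 20 libraries labelled subcutaneous, the 20 labelled visceral, or all 40. Correlations and ratios were tested by permutation in Python 3.11.15 with scipy 1.17.1. For correlations libraries were permuted across treatment groups, so these p-values do not separate group differences from relations within groups. The limma fits of HFD with drug minus HFD in libraries labelled subcutaneous and of the coefficient on Upk3b were tried on simulated data.

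The genes named were the 10 members and Adam7, up to 3 called genes of each marker list with the largest change, and the 6 genes with the highest r to Upk3b, Msln, Krt18 and Krt19; Epcam, Cldn4, Slpi, Krt7, Prss8 and Crisp1 were singled out after their values were seen. Members and lists were chosen with earlier results of these data known. Alternatives were pseudocounts of 0.1 and 5, no filter or one of 10 TPM, quantile normalization, array weights, compared groups alone, Adam7 as a covariate, other covariates and denominators, a block for title numbers, leaving out each library and leaving out the 5 libraries rich in epididymis transcripts. Those with Epcam were chosen after seeing the data. RefSeq promoters are of GRCm38.p6, not the build of the table, and were matched by symbol.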

Additional observations from a re-analysis of the deposited data

Results flagged for a closer look

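A library far from the other 4 of its group was looked for in 53 groups of 5 libraries of a member (Dixon's critical value 0.71), where chance gives about 1 in 20. Gpm6a was at 7.553 TPM in normal library 91 labelled subcutaneous, against 3.523 to 4.319 TPM in the other 4 libraries of that group. Library 91 also had the highest Upk3b of the group, at 180.2 TPM. Krt19 was at 10.6 TPM in normal library 96 labelled subcutaneous, against 32.33 to 49.55 TPM in the other 4. Library 96 was also lowest of its group for Krt8, at 8.71 TPM, and for Epcam, at 5.08 TPM.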

How the results depend on the processing

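Of 2254 changes of members and Adam7 under an alternative, 2212 kept their side of the threshold, 19 lost a call and 23 gained one. No called value changed sign, but 68 values that were called in neither fit did. Among them, in tissue labelled subcutaneous, Adam7 in HFD with drug minus HFD was -0.91 log2 with Epcam as a covariate, against 4.10 as reported. Krt8, Krt18 and Krt19 in normal with drug minus normal were -1.34, -1.22 and -0.39 log2 with Adam7 as a covariate, and the Krt18 interaction was -0.12 log2 with Epcam. Of 570 counts of members, coefficients, correlations and ratios, 532 kept their side of the threshold or, for counts, stayed within 1.5 times the reported count. Of these, 30 changed sign while called in neither fit, among them the Krt18 to Upk3b ratio of normal with drug minus normal, at -1.72 log2 without the rich libraries. Counts within that tolerance still moved: HFD with drug minus HFD, 3 as reported, had 2 members called without HFD library 50, and label differences fell to between 5 and 9 members with the compared groups alone, a filter of 10 TPM or the block. The others follow, and where no value shows a cause, the cause was not tested. Members called in HFD minus normal, 0 as reported, were 3 with array weights, 2 with the compared groups alone, 3 with Adam7 as a covariate and 3 without the libraries rich in epididymis transcripts. In HFD with drug minus HFD they were 1 with Adam7 and 0 with Epcam as a covariate. In HFD with drug minus normal with drug, 1 as reported, they were 0 with no filter, with quantile normalization, with the compared groups alone and without the rich libraries, 4 with array weights, 3 with Adam7 as a covariate and 0 to 4 when 1 library was left out. The label difference under HFD had 4 members called with a filter of 10 TPM, which leaves fewer members to test. The counts of members in this section stand without the share of all genes called in each alternative fit. A change in them is therefore not read as a result about the members.

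The Krt8 coefficient on Adam7 was 0.3376 with the epididymis list in place of Adam7 (adjusted p = 0.069), and turned to -0.0346 without the rich libraries and to -0.0128 beside Epcam. That of Krt18 was 0.1234 and 0.0904 in these 2 fits. That of Krt19 was called at 0.1981 with no group means, 0.1905 with a pseudocount of 5 and 0.3708 with Epcam in place of Adam7. It lay at 0.1377 to 0.2312 when 1 library was left out, and was called without HFD with drug library 27 or normal library 96. Correlations of Krt8, Krt18 and Krt19 with Adam7 were 0.157, 0.234 and 0.121 without the rich libraries. With Msln as denominator, the Krt18 ratio passed the threshold at -2.1873 in HFD minus normal and 4.0494 in HFD with drug minus HFD, as did that of Krt19 at 1.9591 in the second comparison. Leaving out 1 library, ratios of HFD with drug minus HFD lay at 2.8054 to 4.6739 for Krt8, 3.3472 to 5.1587 for Krt18 and 1.3259 to 2.6360 for Krt19, and were called without library 62 with drug (adjusted p = 0.0476 each).

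Libraries of 16 title numbers occur under both labels. Correlations of their deviations were weak, at -0.0714 to 0.093, and were not compared with those of libraries with different numbers. Weak correlations between different tissues cannot show whether libraries with the same number came from the same mouse. The main fits between labels did not use the numbers as pairs and treated all libraries as independent. With the number as a block, 10, 10, 5 and 10 members were called between labels under HFD with drug, normal with drug, HFD and normal, with Gpm6a and Bnc1 lost under HFD (adjusted p = 0.152 and 0.0504). Within a label no number is shared. With 5 libraries a group and about 4.58 to 8.59 M reads, members near 0 in tissue labelled visceral could not be compared between treatments.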
